A study of Mus musculus with 12 samples.

Results

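Voltage-gated sodium channels and a pacemaker channel were described through 7 genes in the hippocampus of mice with recurrent seizures: Scn1a, Scn2a (named Scn2a1 in the files), Scn3a and Scn8a, which encode pore-forming alpha subunits, Scn2b and Scn3b, which encode beta subunits, and Hcn2, which encodes a hyperpolarization-activated, cyclic nucleotide-gated (HCN) channel. Members were found by the gene name printed for each probe, and 15 of the 41174 transcript probes on the array carry one of these names. Of the 15, 13 probes covering 7 of 7 genes passed the filter on dim probes, which asks that in some group all 3 arrays show the probe well above background, and 27681 probes passed it in all. The other 2, 1 probe of Scn1a and 1 of Scn3a, were above background on none of the 12 arrays, so no fold is given for them.

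Sodium channels open when the membrane depolarizes and carry the inward current of the action potential. Their alpha subunits form the pore, and beta subunits alter its gating and bind it to adhesion molecules and the cytoskeleton. HCN channels open when the membrane becomes more negative, pass a mixed cation current and set the resting potential and the summation of synaptic input in hippocampal neurons. Variants of several of these genes cause inherited epilepsies in humans.

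The male C57BL/6N mice, 12 weeks old per the labels, all had 50 nl of 20 mM kainate, a glutamate receptor agonist, placed in the left dorsal hippocampus, so the controls carry that lesion too and no group without kainate was used here. At 3 weeks after kainate, when seizures recurred, lipopolysaccharide (LPS, a bacterial cell wall component that triggers innate immunity; 100 µg/kg) or saline was given into the peritoneum. The 4 groups of 3 mice each were LPS 4 h, saline 4 h, LPS 24 h and saline 24 h, named by the time from that injection to dissection. Whole hippocampus was hybridised to one-colour Agilent arrays with the cyanine dye Cy3, and the labels do not say which side was taken.

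The 75th percentile of intensity, the value to which each array was scaled, ran from 669 to 739 in LPS 4 h arrays, from 371 to 396 in saline 4 h arrays, from 721 to 953 in LPS 24 h arrays and from 740 to 862 in saline 24 h arrays. The share of transcript probes well above background was 58.9% to 62.2%, 54.6% to 55.7%, 69.8% to 71.7% and 65.8% to 67.2% in the same order of groups. The number of arrays limits the precision, and only the labels say that the 3 arrays of a group are 3 animals. Each of the 6 slides held 1 LPS and 1 saline array of the same time, while arrays of 4 h and 24 h were scanned on different days, so time and scan day cannot be told apart. Of the 16 tested probes of hippocampal excitatory neuron markers, 16 were above background on at least 1 array of each 24 h group. In LPS 4 h 1 of these probes, and in saline 4 h 3, were above background on none of the arrays. As a check of the treatment, 6 of 6 probes of LPS response genes were higher at both times.

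Each array probe is a 60-base DNA strand, and a gene with several probes was measured at several places along its transcript. Genes of sodium channel alpha subunits are close copies of one another, so 1 probe each of Scn2a, Scn8a and Scn3b, genes on which the results rest at several places, is shown. Their longest shared run with a member probe of another gene was 8 or 9 bases. Probes were compared only with each other and not with the whole transcripts of other genes. A short run therefore does not show that a probe reads 1 gene only.
Scn2a, chr2:65602605-65602664, plus strand, mm9: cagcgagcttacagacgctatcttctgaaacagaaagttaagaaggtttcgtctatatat
Scn8a, chr15:100870822-100870881, plus strand, mm9: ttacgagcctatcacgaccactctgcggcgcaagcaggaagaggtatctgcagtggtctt
Scn3b, chr9:40090063-40090122, plus strand, mm9: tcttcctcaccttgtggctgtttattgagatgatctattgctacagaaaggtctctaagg
By contrast, 1 probe of Scn1a and 1 of Scn3a share a run of 29 bases, and 39 of their 43 aligned bases are identical. Among the 94 pairs of member probes from different genes, the next longest run was 9 bases. The files also list a transcript of Scn2a for the Scn1a probe. Values of these probes are therefore uncertain as measures of 1 gene each.

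At 4 h the comparison of LPS with saline asked which channel transcripts differ soon after an immune stimulus. Hcn2 rose 2.19-fold, both probes of Scn8a rose about equally, and 2 of 3 probes of Scn3b rose. Scn2b fell in its scaled level, although its intensity before scaling was not lower. Of the 13 probes, 7 were higher, 2 lower and 4 neither at an adjusted p under 0.05 (limma, Benjamini-Hochberg over all probes). Of all 27681 probes, 71.2% were called, 31.4% as higher and 39.8% as lower. The median difference was 0.48 over the 13 probes and -0.09 over all probes on the log2 scale, and LPS and saline arrays did not overlap for 11 of 13, beside 74.7% of the 27677 probes with a value on all 6 arrays. With normexp background correction the median over the 13 was -0.02, with 5 higher and 1 lower, beside -0.17 over all probes. These directions depended on which saline arrays were used. Against the saline arrays of 24 h, 1 of the 13 probes was higher and 10 were lower, with a median of -0.99, beside -0.04 over all probes. The shares of all probes called in that setting and with normexp are not given here, so these counts are not compared with other probes.

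At 24 h the question was whether the difference lasted. No member probe was higher after LPS and 9 of 13 were lower, with 4 neither, while of all probes 42.7% were called, 19.3% as higher and 23.5% as lower. The median difference was -0.28 over the 13 probes and -0.02 over all probes, and the groups did not overlap for 10 of 13, beside 54.3% of all probes. Hcn2, both Scn8a probes and all 3 Scn3b probes were below saline at that time. The scaled level of Scn2b was below saline at both times. With normexp background correction 4 of the 13 were still called lower, namely Hcn2, Scn2a at base 6688, Scn8a at base 7009 and Scn3b at base 4445. The calls of Scn8a at base 5754 (adjusted p = 0.0525), Scn2b (0.278), Scn3b at bases 1276 (0.0819) and 3420 (0.324) and Scn3a at base 9000 (0.555) were lost in that setting. The share of all probes called with normexp is not given here.

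**Figure D1:**
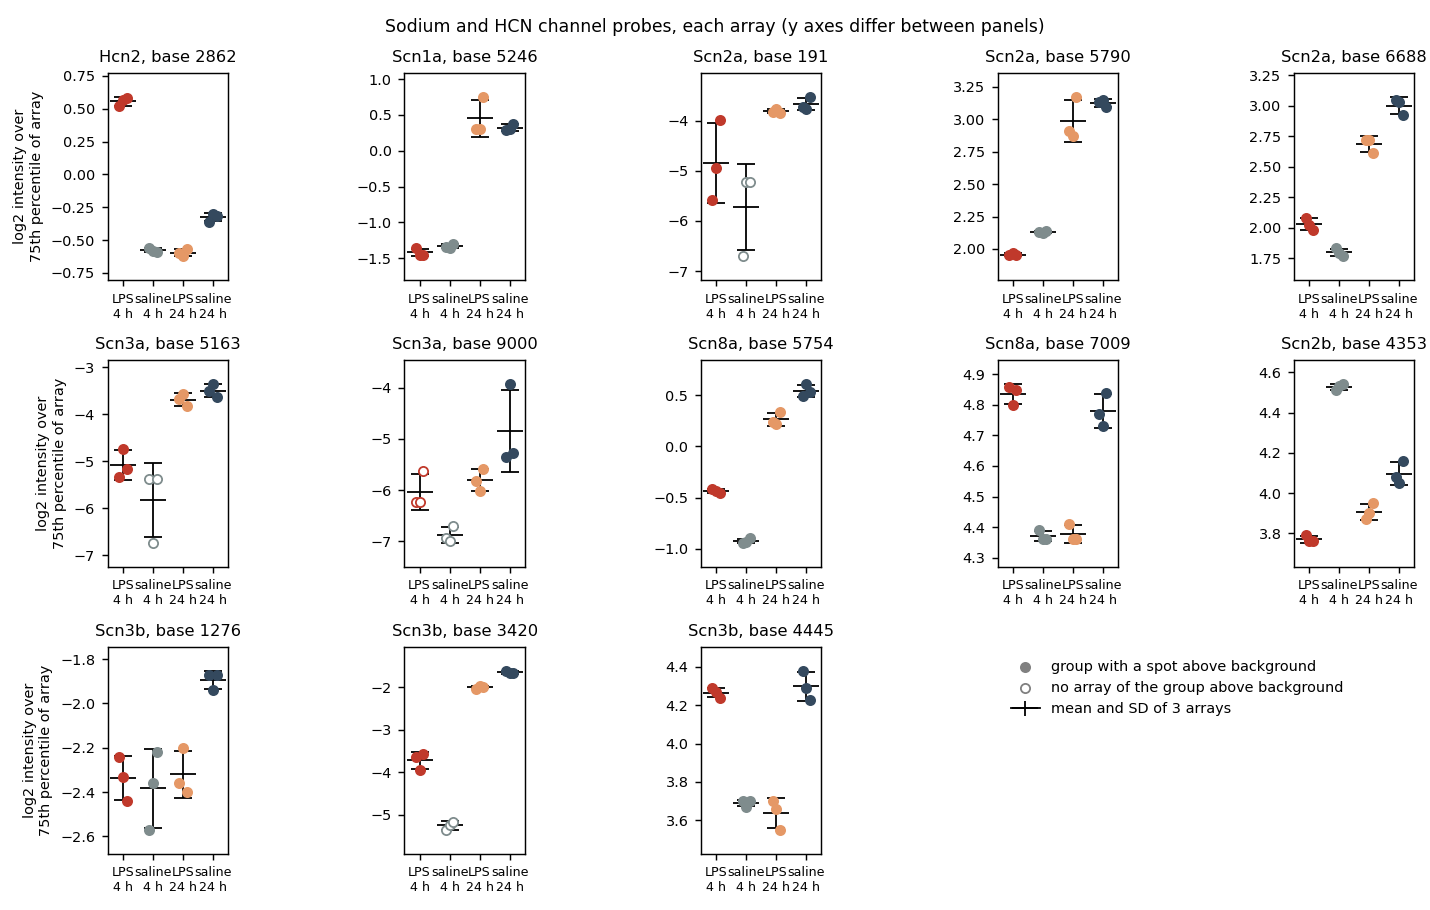
Level of the 13 tested probes on every array, as log2 intensity over the 75th percentile of the array (y axis, which differs between panels), for LPS 4 h, saline 4 h, LPS 24 h and saline 24 h. Points are arrays, bars are the mean and SD of 3 arrays, and open points mark groups in which no array was above background. The LPS 4 h arrays of Hcn2 lie between 0.52 and 0.58, above all other arrays of that probe.

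Scn1a encodes Nav1.1, the alpha subunit that carries much of the sodium current of inhibitory interneurons. Its probe (base 5246 of the transcript) read -1.36, -1.45 and -1.45 in LPS 4 h and -1.34, -1.36 and -1.30 in saline 4 h, as log2 intensity over the 75th percentile of the array, the scale of all levels below. The groups met at their edges, both at -1.36 to 2 decimals, and did not overlap beyond that rounding. The difference was -0.09 ± 0.10 (SE of the fit, as below; adjusted p = 0.469). At 24 h it read 0.31, 0.30 and 0.75 in LPS and 0.29, 0.30 and 0.38 in saline, a difference of 0.13 ± 0.10 (adjusted p = 0.334). The third LPS array of 24 h stood above the other five.

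Scn2a encodes Nav1.2, an alpha subunit of axons of excitatory neurons, and its 3 tested probes differed in response. The probe at base 6688 read 2.08, 2.02 and 1.98 in LPS 4 h and 1.83, 1.79 and 1.77 in saline 4 h, without overlap. It rose by 0.23 ± 0.05 (adjusted p = 0.00145), although with arrays scaled to the median the difference was 0.07 (adjusted p = 0.287). The 24 h arrays read 2.72, 2.72 and 2.61 in LPS and 3.05, 3.03 and 2.92 in saline. It fell by 0.32 ± 0.05 there (adjusted p = 0.000494), again without overlap.

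The Scn2a probe at base 5790, whose sequence is printed above, read 1.95, 1.97 and 1.95 in LPS 4 h and 2.13, 2.12 and 2.14 in saline 4 h. All LPS arrays lay below all saline arrays, and the difference was -0.17 ± 0.07 (adjusted p = 0.0408, and 0.0806 with slide as a block). That call was lost when any 1 of the 6 arrays of 4 h was left out (adjusted p from 0.071 to 0.0907), and in the deposited matrix the value was 0.02. Before scaling, the probe read higher after LPS, at 2860, 2730 and 2590 in LPS 4 h and 1620, 1680 and 1750 in saline 4 h. It was thus lower in its scaled level only, and the part of scaling was not tested. In the later groups it read 2.91, 2.87 and 3.17 in LPS 24 h and 3.13, 3.15 and 3.09 in saline 24 h, which overlap, and the difference of -0.14 ± 0.07 did not pass (adjusted p = 0.121). Without the third LPS array of 24 h it was -0.23 (adjusted p = 0.000367). The probe at base 191 was above background on 2 LPS arrays and on no saline array at 4 h. It gave 0.88 ± 0.44 at 4 h (adjusted p = 0.1, and 0.0305 without the first LPS array of 4 h) and -0.14 ± 0.44 at 24 h (adjusted p = 0.834).

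Scn3a encodes Nav1.3, an alpha subunit that is abundant in the embryonic brain and low in the adult. Both tested probes were dim. The probe at base 5163 was above background on 2 LPS arrays and 0 saline arrays at 4 h, where it gave 0.75 ± 0.33 (adjusted p = 0.0634). The adjusted p was 0.0236 with slide as a block, and 0.0317 and 0.0297 without the first or the third saline array of 4 h. Its 24 h levels were -3.68, -3.57 and -3.83 in LPS and -3.50, -3.36 and -3.64 in saline, overlapping, with a difference of -0.19 ± 0.33 (adjusted p = 0.679). The probe at base 9000 was below background on all 6 arrays of 4 h, so no fold is given although it passed (adjusted p = 0.0492, and 0.061 to 0.16 without any 1 of those arrays). It read -5.83, -6.01 and -5.58 in LPS 24 h and -5.35, -3.93 and -5.28 in saline 24 h, the second saline array standing above the others. The difference of -0.95 ± 0.34 (adjusted p = 0.0493) was -0.49 without that array (adjusted p = 0.0866), and it did not pass either without any 1 of the LPS arrays (0.0622 to 0.133) or with slide as a block (0.0989).

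Scn8a encodes Nav1.6, the alpha subunit concentrated at the axon initial segment and at nodes of Ranvier. At base 5754 its probe read -0.42, -0.44 and -0.46 in LPS 4 h and -0.94, -0.93 and -0.90 in saline 4 h. At base 7009 the other probe read 4.86, 4.80 and 4.85 in LPS 4 h and 4.39, 4.36 and 4.36 in saline 4 h. Neither pair of groups overlapped, and the rises were 0.48 ± 0.04 (adjusted p = 2.42e-06) and 0.46 ± 0.04 (adjusted p = 1.05e-06).

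At 24 h the Scn8a probe at base 5754 read 0.24, 0.22 and 0.34 in LPS and 0.49, 0.61 and 0.53 in saline. The probe at base 7009 read 4.41, 4.36 and 4.36 in LPS and 4.77, 4.73 and 4.84 in saline. The LPS arrays were again apart from saline, now below it. The first probe fell by 0.28 ± 0.04 (adjusted p = 0.00044) and the second by 0.40 ± 0.04 (adjusted p = 1.44e-05). The mean over both probes gave 0.47 ± 0.03 at 4 h and -0.34 ± 0.03 at 24 h.

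Scn2b encodes beta2, which is joined to the alpha subunit by a disulfide bond. Its probe at base 4353 (chr9:44937945-44938004, mm9, plus strand) read 3.79, 3.76 and 3.76 in LPS 4 h and 4.51, 4.53 and 4.54 in saline 4 h. The scaled level fell by 0.76 ± 0.04 (1.69-fold, adjusted p = 3.94e-08), with no overlap. Before scaling, the intensities were 10200, 9420 and 9080 in LPS 4 h and 8440, 8930 and 9230 in saline 4 h. These overlap and were not lower after LPS. The values to which the arrays were scaled ran from 669 to 739 in LPS 4 h and from 371 to 396 in saline 4 h. The fall at 4 h is therefore one of the scaled level only, and the part of scaling in it was not tested. Levels at 24 h were 3.87, 3.90 and 3.95 in LPS and 4.08, 4.05 and 4.16 in saline, a difference of -0.19 ± 0.04 (adjusted p = 0.00198). The 4 h difference was -0.33 against the saline arrays of 24 h, still past the threshold, and the 24 h call was lost in the deposited matrix (adjusted p = 0.249).

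Scn3b encodes beta3, which binds the alpha subunit without a covalent bond. Its bright probe at base 4445 read 4.29, 4.27 and 4.24 in LPS 4 h and 3.70, 3.67 and 3.70 in saline 4 h, which do not overlap. It rose by 0.57 ± 0.05 (adjusted p = 2.87e-06). At 24 h it read 3.70, 3.66 and 3.55 in LPS and 4.38, 4.29 and 4.23 in saline, and it fell by 0.66 ± 0.05 (1.58-fold, adjusted p = 5.7e-06). This was the member probe with the largest measured fall at 24 h apart from the dim Scn3a probe at base 9000.

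The Scn3b probe at base 3420, annotated to another transcript of the gene, read -3.65, -3.94 and -3.56 in LPS 4 h and was above background on no saline array of 4 h. The fitted difference passed (adjusted p = 1.39e-07). Set against the lowest signal called above background for any probe on those saline arrays, the probe was 2.13-fold higher. That signal is not the floor of this probe, so the value is no firm lower limit. With another background correction the fitted difference was 0.17 (adjusted p = 0.468). Its levels at 24 h were -2.03, -1.97 and -1.98 in LPS and -1.61, -1.67 and -1.66 in saline, a difference of -0.35 ± 0.09 (adjusted p = 0.00992, and 0.0503 with slide as a block). The probe at base 1276 read -2.24, -2.33 and -2.44 in LPS 4 h and -2.57, -2.36 and -2.22 in saline 4 h, which overlap, with a difference of 0.05 ± 0.09 (adjusted p = 0.667). At 24 h it read -2.36, -2.20 and -2.40 in LPS and -1.87, -1.94 and -1.87 in saline, and fell by 0.43 ± 0.09 (adjusted p = 0.00383).

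Hcn2 encodes the HCN subunit of many hippocampal and thalamic neurons that responds strongly to cyclic AMP. Its only probe, at base 2862 (chr10:79198521-79198580, mm9, plus strand), read 0.52, 0.57 and 0.58 in LPS 4 h and -0.56, -0.58 and -0.59 in saline 4 h. At 24 h it read -0.60, -0.62 and -0.57 in LPS and -0.36, -0.30 and -0.32 in saline. The LPS arrays were above saline at 4 h and below it at 24 h, with no overlap at either time. The rise at 4 h was 1.13 ± 0.03 (adjusted p = 1.02e-09), between 1.10 and 1.15 within the 3 slides. The fall at 24 h was 0.27 ± 0.03 (adjusted p = 5.73e-05), with within-slide differences between -0.32 and -0.25. Against the saline arrays of 24 h the 4 h value was still 0.88, the only one of the 13 probes called higher in that setting, while the 24 h value against the saline arrays of 4 h was -0.02 (adjusted p = 0.538).

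**Figure D2:**
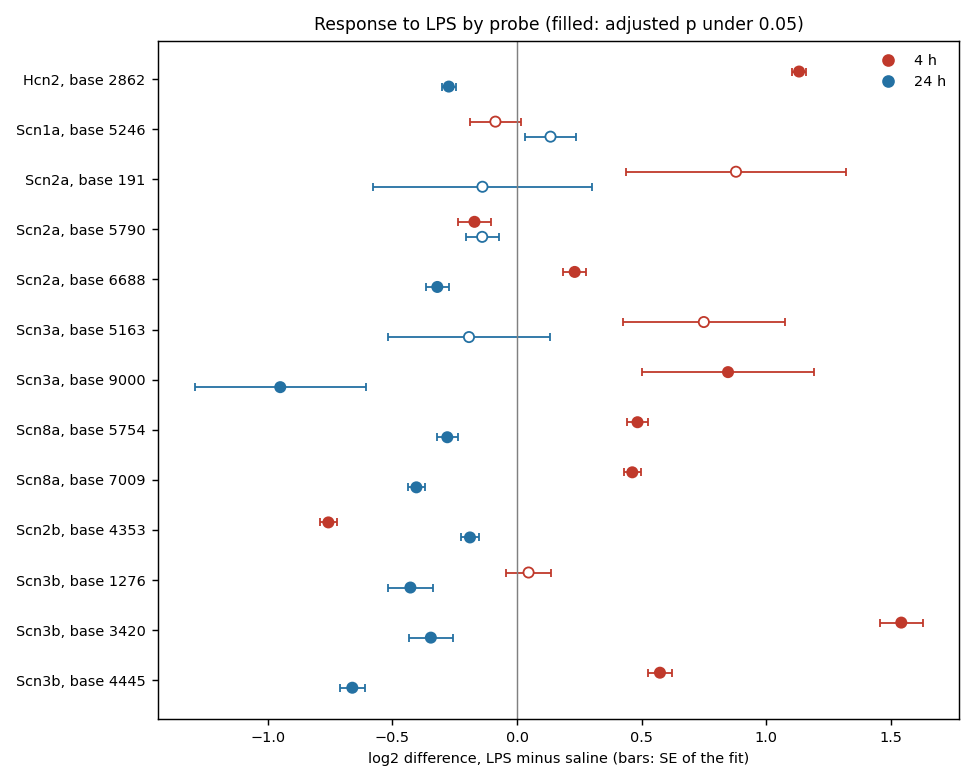
Log2 difference, LPS minus saline, of each tested probe at 4 h and at 24 h with the SE of the fit (x axis) by gene and base in the transcript (y axis). Filled points have an adjusted p under 0.05. Hcn2 lies at 1.13 at 4 h and at -0.27 at 24 h. The 4 h values of Scn3b at base 3420, of both Scn3a probes and of Scn2a at base 191 are fitted values of probes too dim in a group to give a fold.

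The response was compared between times in the same fit, as the 24 h difference minus the 4 h difference. It was lower for 8 of 13 probes, higher for 1 and neither for 4, where 65.9% of all probes were called, 28.9% as lower and 36.9% as higher. Hcn2 gave -1.41 ± 0.04, the Scn8a probes -0.76 ± 0.06 and -0.87 ± 0.05, and Scn3b at base 4445 -1.23 ± 0.07. Scn2b gave 0.57 ± 0.05, its fall being smaller at 24 h than at 4 h, and 0.25 in the deposited matrix (adjusted p = 0.248). For Scn1a the value was 0.22 ± 0.15 (adjusted p = 0.208). With normexp the values of Scn3b at bases 1276 (adjusted p = 0.254) and 3420 (0.173) and of Scn3a at base 9000 (0.731) did not pass.

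The 2 sets of saline arrays differed widely for these genes. Saline 24 h lay above saline 4 h for 12 of 13 probes and below it for Scn2b (-0.43 ± 0.04, but 0.13 with quantile normalization), with 13 of 13 called, and of all probes 79.4% were called, 38.8% as higher and 40.6% as lower. Scn1a was 1.66 ± 0.10 higher in saline 24 h than in saline 4 h, and Scn8a at base 5754 was 1.47 ± 0.04 higher. Scn3b at base 3420 was above background on no saline array of 4 h. Set against the lowest signal called above background for any probe on those arrays, it was 8.94-fold higher in saline 24 h, which is no firm lower limit. With normexp the differences of Scn2a at base 191 and of both Scn3a probes were below 0 and did not pass, and with arrays scaled to the median Hcn2 gave 0.06 (adjusted p = 0.256). Time after injection and scan day cannot be told apart in these differences. Set against the saline arrays of 4 h, the LPS 24 h arrays had 8 probes higher and 1 lower, in place of 0 higher and 9 lower against their own controls. The median there was 0.89 over the 13 probes and 0.04 over all probes, and the share of all probes called there is not given here. Scn8a at base 5754 turned to 1.19 and Scn2a at base 6688 to 0.89, whereas Scn2b stayed lower at -0.62. In the order of its 4 group levels, the Scn8a probe at base 7009 had LPS 24 h beside saline 4 h, with a difference of 0.006 that did not pass (adjusted p = 0.875), and LPS 4 h beside saline 24 h, at 0.05 (adjusted p = 0.21).

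**Figure D3:**
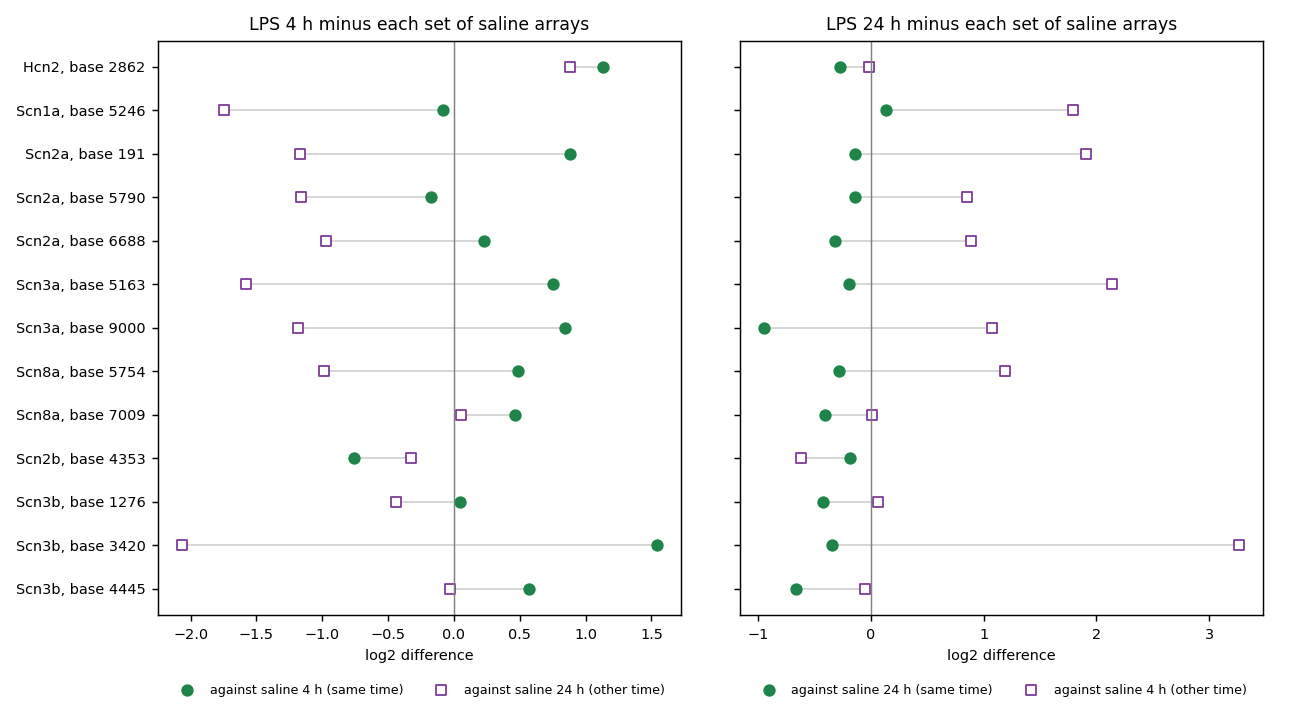
Log2 difference of LPS 4 h arrays (left) and LPS 24 h arrays (right) from the saline arrays of the same time (circles) and of the other time (squares), for each tested probe (y axis). Hcn2 at 4 h stays above 0 with both sets of controls, at 1.13 and 0.88, and Scn2b stays below 0 in both panels, while Scn3b at base 3420 changes side. Its differences from the saline arrays of 4 h, on none of which it was above background, are fitted values and no folds.

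Other genes of HCN channels were read for context. The scaled level of Hcn3 fell at both times, by 0.87 ± 0.10 at 4 h and 0.36 ± 0.10 at 24 h (adjusted p = 0.0775 with normexp at 24 h). Its 4 h value was -0.06 against the saline arrays of 24 h. The values to which the arrays were scaled ran from 669 to 739 in LPS 4 h and from 371 to 396 in saline 4 h. The part of scaling in the 4 h fall was not tested. Pex5l, which encodes the HCN auxiliary protein TRIP8b, gave -0.13 ± 0.07 at 4 h (adjusted p = 0.113, and 0.08 on the log2 scale with quantile normalization) and fell by 0.24 ± 0.07 at 24 h (adjusted p = 0.278 with normexp and 0.209 in the deposited matrix), and the dim Hcn4 passed at neither time.

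Of the other sodium channel subunits, the dim Scn4a probe passed at neither time. Scn10a, a sensory neuron subunit, was below background on all 6 arrays of 4 h and gave 0.30 ± 0.24 at 24 h. Scn7a, Scn9a and Scn11a did not pass the filter on dim probes.

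A list of genes of the axon initial segment, where sodium channels are anchored, and of sodium channel partners was read as well. It had 17 of 27 probes higher and 2 lower at 4 h, against 2 higher and 14 lower at 24 h, with medians of 0.33 and -0.21. Against the saline arrays of the other time these medians were -0.30 and 0.77. Ank3, whose product ankyrin-G anchors sodium channels, rose by 1.66 ± 0.07 and 1.37 ± 0.03 at its probes at 4 h and fell by 0.47 ± 0.07 and 0.30 ± 0.03 at 24 h. Fgf13, a cytoplasmic partner of sodium channels, rose at 4 of 4 probes at 4 h, by 0.53 ± 0.04 to 1.14 ± 0.09 (0.08 at base 360 with normexp, adjusted p = 0.743), and fell at 3 of 4 at 24 h. Sptbn4, which encodes beta-IV spectrin of the initial segment, rose by 0.92 ± 0.05 at one probe at 4 h. The scaled level of its other probe fell by 0.60 ± 0.11 at 4 h, with an adjusted p of 0.0511 with normexp. The part of scaling in that fall was not tested. Nrcam, an adhesion molecule, rose by 1.51 ± 0.04 at base 3092 and had a value of -0.15 ± 0.06 at base 4317 at 4 h (adjusted p = 0.0549), which was 0.22 with quantile normalization. These named values also depended on the controls. Against the saline arrays of 24 h the 4 h values were -0.21 and 0.22 for Ank3, and -0.37 to -0.1 for Fgf13. Nrcam at base 3092 gave -0.28 there, and the Sptbn4 probes -0.62 and 0.22, in the order above. Against the saline arrays of 4 h the 24 h values of Ank3 were 1.4 and 0.85.

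**Figure D4:**
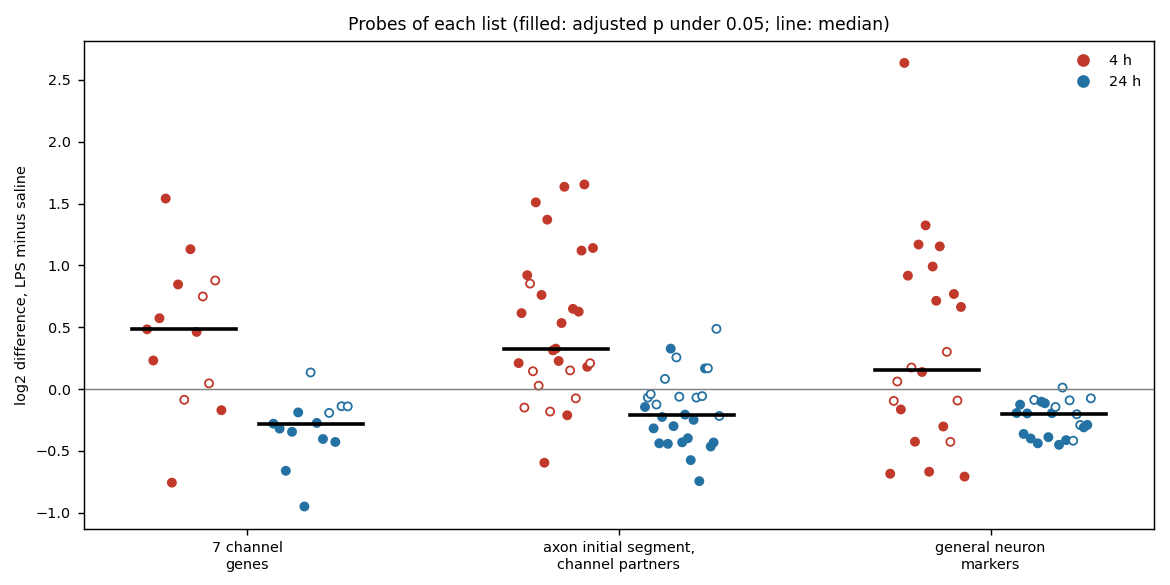
Log2 difference, LPS minus saline (y axis), of each tested probe of the 7 channel genes, of axon initial segment genes and sodium channel partners, and of general neuron markers, at 4 h (left in each pair) and 24 h (right). Lines are medians and filled points have an adjusted p under 0.05. The medians of the channel genes are 0.48 and -0.28, and those of the axon initial segment and partner list 0.33 and -0.21.

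Whole tissue was measured, so fewer cells of a type and less RNA per cell cannot be told apart. General neuron markers had 10 of 22 probes higher and 6 lower at 4 h, and 0 higher and 14 lower at 24 h, with medians of 0.16 (-0.01 with arrays scaled to the median) and -0.20. Their summed level (linear, in units of the 75th percentile) was below saline at both times, unlike the sign of the 4 h median, and ran from 321 to 338 in LPS 4 h, against 410 to 422 in saline 4 h, and from 310 to 334 in LPS 24 h, against 364 to 371 in saline 24 h. Microglia markers had 2 of 11 probes higher and 7 lower at 4 h and 9 higher and 1 lower at 24 h. Their summed level was 48.6 to 50.4 in LPS 4 h and 75.1 to 76.5 in saline 4 h, and 44.3 to 47.3 in LPS 24 h and 27.9 to 28.4 in saline 24 h. Astrocyte markers had 4 of 15 probes higher and 9 lower at 4 h and 9 higher and 2 lower at 24 h, and their sums were 307 to 320 in LPS 4 h and 485 to 506 in saline 4 h, and 229 to 232 in LPS 24 h and 206 to 213 in saline 24 h. Thalamus markers, which a dissection of hippocampus could include, had 7 of 18 probes higher and 6 lower at 4 h and 10 higher and 0 lower at 24 h. They summed to 27.4 to 27.6 in LPS 4 h and 39.9 to 40.8 in saline 4 h, and to 23.0 to 24.4 in LPS 24 h and 18.6 to 19.3 in saline 24 h. Hippocampal excitatory neuron markers had 8 of 16 probes higher and 2 lower at 4 h and 0 higher and 8 lower at 24 h, with medians of 0.39 and -0.13. At 4 h the median was 0.01 with normexp. They summed to 254 to 260 in LPS 4 h and 309 to 316 in saline 4 h, and to 209 to 212 in LPS 24 h and 265 to 276 in saline 24 h. Endothelial markers had 1 of 8 probes higher and 5 lower at 4 h and 4 higher and 0 lower at 24 h, with medians of -0.73 and 0.27. Their sums were 17.1 to 17.4 in LPS 4 h and 45.8 to 46.7 in saline 4 h, and 28.6 to 31.1 in LPS 24 h and 23.3 to 24.7 in saline 24 h. Interneuron markers had 4 of 8 probes higher and 3 lower at 4 h and 0 higher and 2 lower at 24 h, and oligodendrocyte markers had 5 of 13 higher and 6 lower at 4 h and 2 higher and 3 lower at 24 h. Housekeeping genes had 6 of 14 probes higher and 8 lower at 4 h and 4 higher and 5 lower at 24 h. Their sums were 435 to 504 in LPS 4 h and 574 to 660 in saline 4 h, so this list lay below saline too. At 24 h they were 451 to 490 in LPS and 469 to 481 in saline. The part of scaling in all these sums, and the part of the marker shifts in the channel values, were not tested.

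Probes of one transcript did not always move together on these arrays. Over 4838 transcripts with probes at least 200 bases apart, 22.6% of the pairs called at both places had opposite calls at 4 h and 6.6% at 24 h. The level of the downstream probe minus that of the upstream one had a median of 2.12 to 2.16 in LPS 4 h arrays and 2.09 to 2.15 in saline 4 h arrays, and of 1.75 to 1.77 in LPS 24 h arrays and 1.83 to 1.84 in saline 24 h arrays. Each pair took the outermost probes of a transcript, which for Scn2a were those at bases 191 and 6688. The probe at base 191 was not called at 4 h, so Scn2a is not among these opposite calls. Within Scn2a the 4 h values were 0.23 at base 6688 and -0.17 at base 5790. The call at base 5790 was lost when any 1 array of 4 h was left out. For Scn8a the probes at both places rose at 4 h and fell at 24 h.

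The genes whose profile over the 12 arrays was most like the members were listed by Pearson r, among 14902 genes, as a description of arrays that share their slides and scaling. The mean profile of the 7 members was most like Krt9 (r = 0.99), Kazn (0.983), Slc26a4 (0.981), Lrrc49 (0.979) and Sowaha (0.976). Hcn2 was most like Rb1 (0.991), Srsf11 (0.99), Casp8ap2 (0.987), Mbd1 (0.984) and Btg1 (0.983). Rb1 averaged 2.13 in LPS 4 h and 1.47 in saline 4 h, and 1.45 in LPS 24 h and 1.66 in saline 24 h. Scn1a was most like Eno1 (0.996), Chst2 (0.995), Mrto4 (0.994), Ralgapb (0.993) and Slc25a18 (0.993). Eno1 averaged -0.15 in LPS 4 h and -0.05 in saline 4 h, and 1.12 in LPS 24 h and 1.13 in saline 24 h.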

How the data were processed

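The deposited per-array files hold fluorescence intensity, which Agilent Feature Extraction 10.7.3.1 background-subtracted, per the file headers (the submitters' processing notes name version 9.1). The deposited series matrix holds log2 values that are alike in distribution on all arrays, which the authors' files do not explain further; it served as an alternative. Positions are on build mm9, per the file headers. Here log2 processed intensity minus the 75th percentile of each array was used, repeated spots of a probe were averaged, outlier spots were left out, and a probe was tested if well above background on 3 of 3 arrays of at least 1 group. Gene names were updated through a RefSeq table by accession (27479 probes), symbol (5478) or synonym (679). One linear model of the 4 group means was fitted to the 12 arrays (R 4.3.3, limma 3.58.1) and p-values were adjusted by Benjamini-Hochberg over 27681 probes and a threshold of 0.05. The fit was tested on simulated data. The members and gene lists were chosen with earlier results of these data known. All tested member probes are named. For other lists the named genes are up to 4 with the smallest adjusted p, and genes of the other sodium and HCN lists, some of which are not reported here. Alternatives covered background correction, scaling, filter, probe rule, blocks, thresholds, controls and left-out arrays.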

Additional observations from a re-analysis of the deposited data

Results flagged for a closer look

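The response to LPS differed between 24 h and 4 h for 9 of the 13 member probes, tested as the 24 h difference minus the 4 h difference in the fit over all probes (65.9% of all probes were called). It was -1.405 for Hcn2 (adjusted p = 5.19e-09), -0.551 for Scn2a at base 6688 (adjusted p = 5.01e-05) and -1.796 for Scn3a at base 9000, which was below background on all arrays of 4 h (adjusted p = 0.00842). It was -0.763 and -0.866 for the Scn8a probes (adjusted p = 1.67e-06 and 2.48e-07). For Scn3b it was -0.474, -1.887 and -1.234 at bases 1276, 3420 and 4445 (adjusted p = 0.00811, 6.28e-07 and 2.45e-07), where the value at base 3420 is a fitted one, since no saline array of 4 h was above background. Scn2b was the exception in sign at 0.567 (adjusted p = 5e-06). The part of time and of scan day in these values cannot be told apart.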

How the results depend on the processing

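Hcn2, Scn8a at base 7009 and Scn3b at base 4445 kept their direction and their calls at 4 h and 24 h under every scaling, background correction and block run and without any 1 array. Of the 13 member probes, 2 were lower at 4 h in the fit reported, and 1 was lower with normexp, quantile normalization, the deposited matrix, gene means, the replicate block, slide as a block, an adjusted p under 0.01, a 1.5-fold minimum and without any 1 array. Higher calls at 4 h numbered 3 with 1 probe per gene and with the 1.5-fold minimum, 4 with gene means, 1 against saline of the other time (10 lower) and 3 against both sets (7 lower). At 24 h lower calls numbered 4 with normexp, with 1 probe per gene and with gene means and 2 with the 1.5-fold minimum, against 8 to 9 without 1 array; with the other saline arrays 8 were higher and 1 lower, and with both sets 6 and 4. For the difference between responses, lower calls numbered 5 with normexp and with gene means and 3 with 1 probe per gene, and higher calls 0 in the deposited matrix and with the 1.5-fold minimum. For saline at 24 h against 4 h, higher calls numbered 8 with normexp and with probes above background on all arrays and 6 with 1 probe or the mean per gene, and lower calls 0 with normexp, quantile normalization, the deposited matrix and the 1.5-fold minimum and 2 with no filter. The shares of all probes called in these settings are not given here. The counts therefore say how the calls moved and not how the members compare with other probes.

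Of the values called in the fit reported (uncalled ones are not listed here), those that changed sign at 4 h were Scn3a at base 9000 (-0.104 with normexp) and Scn2a at base 5790 (0.021 in the matrix). Against saline of the other time they were Scn2a at base 6688 (-0.975), Scn3a at base 9000 (-1.182), Scn8a at base 5754 (-0.986) and Scn3b (-2.067 at base 3420, -0.034 at base 4445), and against both sets Scn2a (-0.372), Scn3a (-0.168), Scn8a (-0.252) and Scn3b at base 3420 (-0.263). At 24 h, against saline of the other time, they were Scn2a (0.886), Scn3a (1.077), Scn8a (1.189 and 0.006) and Scn3b (0.062 at base 1276, 3.262 at base 3420), and against both sets Scn2a (0.283), Scn3a (0.063), Scn8a (0.455) and Scn3b (1.458). Between saline groups, normexp gave -0.079 for Scn2a at base 191 and -0.145 and -0.423 for Scn3a, and Scn2b was 0.13 with quantile normalization and 0.11 in the matrix. Values of Scn3a at base 9000 and Scn3b at base 3420 against saline of 4 h are fitted ones, with no saline array above background. The cause was not tested. The median of all probes was -0.09 at 4 h and -0.02 at 24 h, against -0.25 and -0.09 with arrays scaled to the median; between saline groups it was 0 as reported, -0.19 with that scaling and -0.41 with normexp.

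For each probe the deviation of an array from its group mean was taken, and these deviations were correlated between LPS and saline arrays. Same-numbered arrays gave 0.08, 0.17 and -0.15 at 4 h and 0.03, 0.08 and 0.07 at 24 h. Differently numbered arrays gave -0.3 to 0.25 at 4 h and -0.06 to 0.01 at 24 h. So few values cannot exclude that the numbers pair samples, and at 24 h same-numbered arrays also shared a slide. The replicate block gave 1.13 for Hcn2 at 4 h. It ended the calls of Scn2a at base 5790 (adjusted p = 0.0559) and of Scn3a at base 9000 (adjusted p = 0.0675 at 4 h and 0.0713 at 24 h). Signal over background limits Scn3a, Scn2a at base 191 and Scn3b at base 3420.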
